A study of Mus musculus with 6 samples.

Results

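The 10 genes described here, Clock, Per1, Per2, Per3, Cry1, Cry2, Nr1d1, Nr1d2, Dbp and Ciart, form the core of the circadian clock and its direct outputs. They were taken by symbol from the 20620 genes of the deposited table, and all 10 passed the filter on low counts that left 20604 genes. Hippocampal RNA of 6 male C57BL/6J mice was sequenced, 1 library per mouse, and every animal carried a Braf allele with the Q241R substitution. In the 3 control mice (Braf Q241R Neo/+, aged 31 to 32 weeks) that allele still held its Neo cassette. The 3 n-Braf mice (Braf Q241R/+ ;CaMKII-Cre, aged 32 to 34 weeks) also carried a Cre transgene named for CaMKII, a kinase of excitatory neurons. Effects of Cre, of losing the cassette and of the mutant kinase cannot be told apart, and wild-type mice were not analysed here. The mice lived under 12 h of light and 12 h of dark, and for the hour of tissue collection the sources used here give no value. Clock genes were therefore read in 2 ways: as a comparison of n-Braf with control, and library by library as a gauge of the time of collection.

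In mammals the clock is a feedback loop that most cells run. CLOCK, or its relative NPAS2, pairs with BMAL1, the product of Arntl, and the pair binds E-box sequences and drives the Per, Cry, Nr1d and Dbp genes. PER and CRY proteins return to the nucleus and block the pair, and the REV-ERB receptors encoded by Nr1d1 and Nr1d2 repress Arntl. In rodent tissue under a light-dark cycle, Arntl and Npas2 transcripts peak near the start of the light phase. Those of Dbp, Nr1d1 and the Per genes peak later, towards dusk, and Cry1 follows them. Hippocampal neurons and glia keep such a rhythm, and Per1 and Per2 in addition respond to synaptic activity and to glucocorticoids.

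Promoters of the members were searched for sequence elements of the kinds known from the loop, and stretches with matches are shown for 4 members. The stretches with matches in Cry2 and Nr1d1 are not shown. RefSeq start sites on GRCm38.p6 matched 9 of the 10 members, with 12 promoter windows. Per2 had no matching start site and was not searched. Both strands of the 250 bases before each start were searched for the E-box CACGTG, the related CACGTT, the D-box bound by DBP (TTATGTAA or TTACGTAA), the core of the REV-ERB element (TAGGTCA or TGGGTCA) and the cAMP response element TGACGTCA. The E-box was found in 3 members, Per1, Cry1 and Ciart, and in 6.02% of all 32851 promoter windows. CACGTT was found in 3 members, Cry1, Cry2 and Nr1d1 (3.85% of all windows). The D-box was found in Per3 only (0.931% of all windows). The other 2 elements were found in none of the 12 windows (5.38% and 1.55% of all windows). A match here describes letters in this window and is not evidence of binding. Each run is read 5′ to 3′ on the strand of the gene, with the matches in capitals and positions counted back from the start. Ciart (chr3:95882252-95882364, minus strand, positions -136 to -24) has E-boxes that begin at -116, -58 and -44. Per3 (chr4:151044796-151044890, minus strand, -225 to -131) has D-boxes that begin at -205 and -158. Cry1 (chr10:85185089-85185153, minus strand, -99 to -35) has CACGTT, read on the other strand, at -79 and the E-box at -60. Per1 (chr11:69098763-69098808, plus strand, -186 to -141) has an E-box at -166, before a start site internal to the annotated gene. None of the 4 stretches lies in an exon of its gene in GENCODE M21.
Ciart: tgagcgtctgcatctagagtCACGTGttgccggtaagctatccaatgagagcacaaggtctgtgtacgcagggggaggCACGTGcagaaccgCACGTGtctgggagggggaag
Per3: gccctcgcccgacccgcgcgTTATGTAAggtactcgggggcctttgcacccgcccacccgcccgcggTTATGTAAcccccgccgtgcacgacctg
Cry1: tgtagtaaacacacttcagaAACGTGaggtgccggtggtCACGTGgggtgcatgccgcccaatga
Per1: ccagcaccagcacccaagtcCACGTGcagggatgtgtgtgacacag

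The libraries held 25227112 to 31832245 assigned counts. Braf, the targeted gene, was at 116 to 123 CPM in the controls and 184 to 205 CPM in n-Braf. Markers of excitatory neurons were present, and 12 of them summed to 3834 to 5109 CPM per library. Tissue from the ventricle differed between libraries: summed over 13 tested genes, choroid plexus markers reached 3599 CPM in control 1 and 2026 CPM in control 2, but 140 CPM in control 3 and 90.7 to 109 CPM in n-Braf. All 9 tested ependymal and all 15 myelin markers were lower in n-Braf (median log2 fold changes -1.35 and -0.32), and 12 of 13 neocortical markers were higher (median 0.17). The part of these tissues in the clock gene values was not tested beyond the fits given beside them. In bulk tissue, fewer cells of a type and less RNA per cell cannot be told apart. Levels are given as CPM, counts scaled to library size with TMM factors, as mean ± SD over the 3 libraries of a group.

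None of the 10 clock genes passed the threshold between n-Braf and control. edgeR's quasi-likelihood test, adjusted over all 20604 genes, called 0 members at an adjusted p of 0.05, where it called 0 genes in all (0%). At an unadjusted p of 0.05 it held 1 member, Per3, lower in n-Braf. Of all genes tested 6.82% fell under that p, 3.09% as higher and 3.73% as lower. DESeq2 and limma-voom also called 0 members at an adjusted p of 0.05, where over all 20604 genes DESeq2 called 78 and limma-voom 0. The groups did not overlap in 2 members, Per3 and Cry1, against 11.5% of all genes, so the count stood near the background. The median log2 fold change of the 10 members was -0.062, beside -0.0042 over all genes, with 4 members higher and 6 lower. This median was 0.015 without control 3, 0.014 with age as a covariate and -0.13 without control 2, so its sign was not stable.

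**Figure D1:**
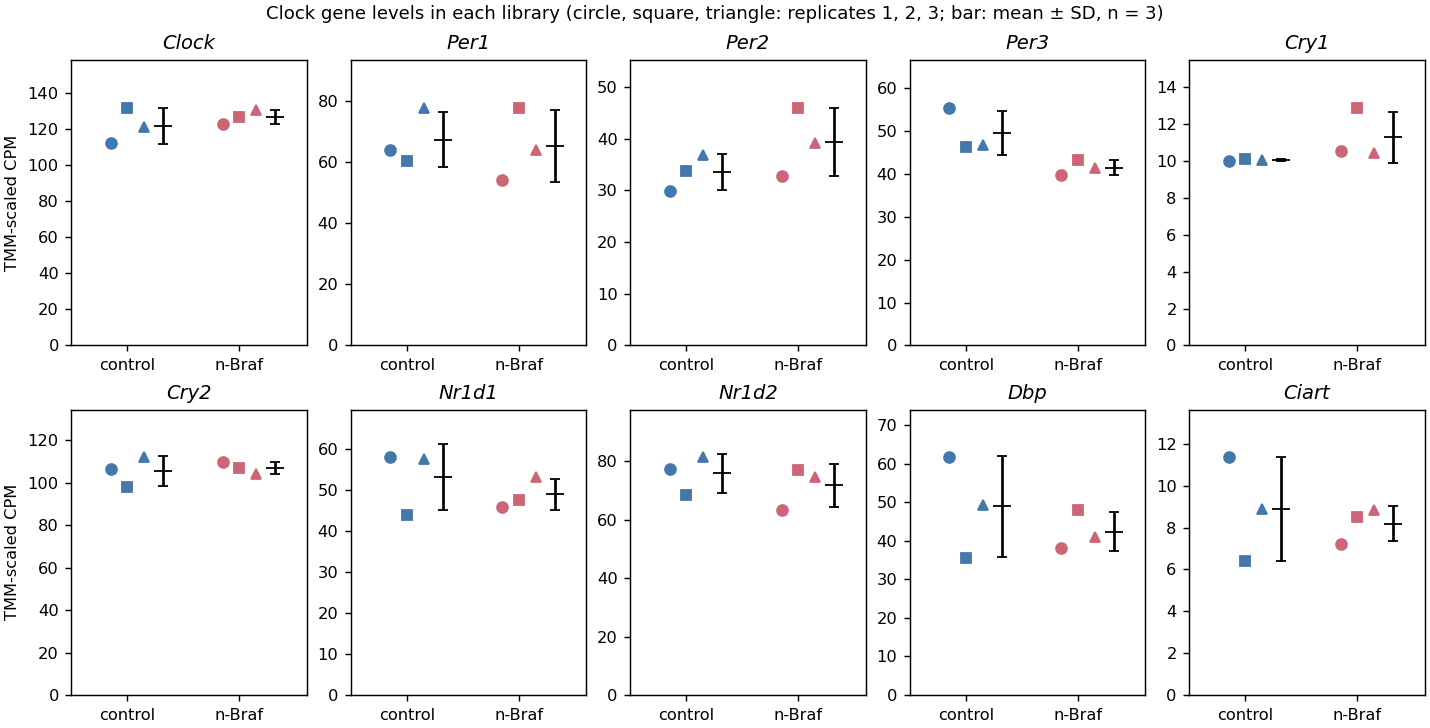
Level of each of the 10 clock genes in TMM-scaled CPM (vertical axes, starting at 0) in the 3 control and 3 n-Braf libraries; circles, squares and triangles are replicates 1, 2 and 3 and bars are mean ± SD (n = 3). Per3 is lower in all 3 n-Braf libraries, from 39.7 to 43.3 CPM against 46.4 to 55.5 CPM, while the groups overlap in the other genes except Cry1.

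Clock (ENSMUSG00000029238, chromosome 5, 76209868 to 76304792) encodes the activator that pairs with BMAL1. Controls 1, 2 and 3, always named in this order, had 112, 132 and 121 CPM, and n-Braf 1, 2 and 3 had 123, 127 and 131 CPM. All 3 n-Braf libraries lay inside the range of the controls. Its log2 fold change was 0.06 (SE 0.07), with a 95% interval of -0.10 to 0.22.

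Among the Period genes, which encode the repressors of the loop, the members differed in direction. Per3 (ENSMUSG00000028957, chromosome 4, 151003652 to 151044665) was at 55.5, 46.4 and 46.7 CPM in the controls and at 39.7, 43.3 and 41.5 CPM in n-Braf. Every n-Braf library was below every control, and control 1 stood above the other two controls. The log2 fold change of Per3 was -0.26 (SE 0.09, 95% interval -0.45 to -0.06), with an unadjusted p of 0.0150 and an adjusted p of 0.632 in edgeR's quasi-likelihood test. The authors' deposited table gives Per3 a log2 fold change of -0.26, a p-value of 0.0227 and an adjusted p of 0.788. Without control 1, the library highest in choroid plexus markers, the log2 fold change of Per3 was -0.17 (SE 0.08, unadjusted p = 0.0605). With the choroid plexus marker mean as a covariate Per3 was at -0.13 (SE 0.12, unadjusted p = 0.299). Without controls 1 and 2 together it was at -0.17 (SE 0.11), a fit in which the lone control is assumed to vary like n-Braf. With age as a covariate, n-Braf mice being older, Per3 was at -0.27 (SE 0.13, unadjusted p = 0.0695).

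Per2 (ENSMUSG00000055866, chromosome 1, 91415982 to 91459324) was at 30.0, 33.7 and 36.9 CPM in the controls and at 32.9, 46.0 and 39.2 CPM in n-Braf. n-Braf 2 and 3 lay above all controls, and n-Braf 1 lay between them. Its log2 fold change was 0.23 (SE 0.13, 95% interval -0.05 to 0.52). Without controls 1 and 2 together the value was 0.09 (SE 0.18), and with the choroid plexus covariate it was 0.10 (SE 0.18). Per2 rested on n-Braf 2 in particular: the value was 0.10 (SE 0.12) without it, and 0.34 (SE 0.11, unadjusted p = 0.0167, adjusted p = 0.926 in the quasi-likelihood test) without n-Braf 1. With age as a covariate Per2 was at 0.42 (SE 0.16, unadjusted p = 0.0312, adjusted p = 0.700 in the same test).

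Per1 (ENSMUSG00000020893, chromosome 11, 69095217 to 69109960) was at 63.9, 60.4 and 77.5 CPM in the controls and at 54.1, 77.7 and 63.9 CPM in n-Braf. n-Braf 1 lay below every control, and the other n-Braf libraries overlapped the controls. On the log2 scale Per1 differed by -0.04 (SE 0.14, 95% interval -0.35 to 0.26). The ratio of Per2 to Per3 within a library, which no scaling can move, was 0.540, 0.727 and 0.790 in the controls and 0.828, 1.06 and 0.945 in n-Braf. This ratio was chosen after the values were seen and has no test; its groups did not overlap.

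The Cryptochrome genes encode the partners of PER in repression. Cry1 (ENSMUSG00000020038, chromosome 10, 85131700 to 85185064) was at 10.0, 10.1 and 10.0 CPM in the controls and at 10.6, 12.9 and 10.4 CPM in n-Braf. All 3 n-Braf libraries were above the controls, though n-Braf 1 and 3 only by little. The lowest n-Braf library exceeded the highest control by 3.19%, whereas counting alone gives an SD of 6.23% at the lowest Cry1 count of 258. Cry1 had a log2 fold change of 0.17 (SE 0.12, 95% interval -0.10 to 0.43). Without n-Braf 2 it was 0.06 (SE 0.12), and with age as a covariate 0.32 (SE 0.16).

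Cry2 (ENSMUSG00000068742, chromosome 2, 92403646 to 92434043) was at 107, 98.1 and 112 CPM in the controls and at 110, 107 and 104 CPM in n-Braf. It was the steadiest of the 10 genes, with a ratio of highest to lowest library of 1.14. On the log2 scale Cry2 differed by 0.02 (SE 0.07, 95% interval -0.13 to 0.17), and its sign changed when control 2 or n-Braf 1 was left out.

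Nr1d1 and Nr1d2 encode REV-ERB alpha and beta, haem-binding receptors that repress Arntl. Nr1d1 (ENSMUSG00000020889, chromosome 11, 98767932 to 98775333) was at 58.1, 43.9 and 57.7 CPM in the controls and at 45.9, 47.7 and 53.2 CPM in n-Braf. Controls 1 and 3 were the highest and control 2 the lowest of the 6 libraries. Nr1d1 had a log2 fold change of -0.12 (SE 0.11, 95% interval -0.38 to 0.13), and without control 2 one of -0.24 (SE 0.09, unadjusted p = 0.0217, adjusted p = 0.628 in the quasi-likelihood test). Nr1d2 (ENSMUSG00000021775, chromosome 14, 18204054 to 18239127) was at 77.5, 68.6 and 81.4 CPM in the controls and at 63.4, 77.1 and 74.7 CPM in n-Braf. Its groups overlapped, with a log2 fold change of -0.08 (SE 0.09, 95% interval -0.29 to 0.13).

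Dbp and Ciart are outputs of the loop. Dbp (ENSMUSG00000059824, chromosome 7, 45705088 to 45710203) encodes a D-box binding transcription factor whose RNA swings strongly over the day in many tissues. It was at 61.6, 35.6 and 49.4 CPM in the controls and at 38.0, 48.0 and 41.0 CPM in n-Braf. The controls held both the highest and the lowest library, and n-Braf lay inside their range. Dbp had a log2 fold change of -0.21 (SE 0.17, 95% interval -0.60 to 0.19). Controls 1 and 2 each moved this value: without control 1 it was -0.0057 (SE 0.15), and without control 2 it was -0.39 (SE 0.13, unadjusted p = 0.0155, adjusted p = 0.603 in the quasi-likelihood test).

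Ciart (ENSMUSG00000038550, chromosome 3, 95878503 to 95882251) encodes a repressor of CLOCK and BMAL1. It was at 11.4, 6.39 and 8.88 CPM in the controls and at 7.23, 8.50 and 8.85 CPM in n-Braf, so that control 1 was again highest and control 2 lowest. Ciart had a log2 fold change of -0.12 (SE 0.20, 95% interval -0.57 to 0.33), and it was 0.10 without control 1. The intervals of Dbp and Ciart reach from a fold of 0.659 to 1.14 and from 0.676 to 1.26, so the data bound their difference only loosely.

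**Figure D2:**
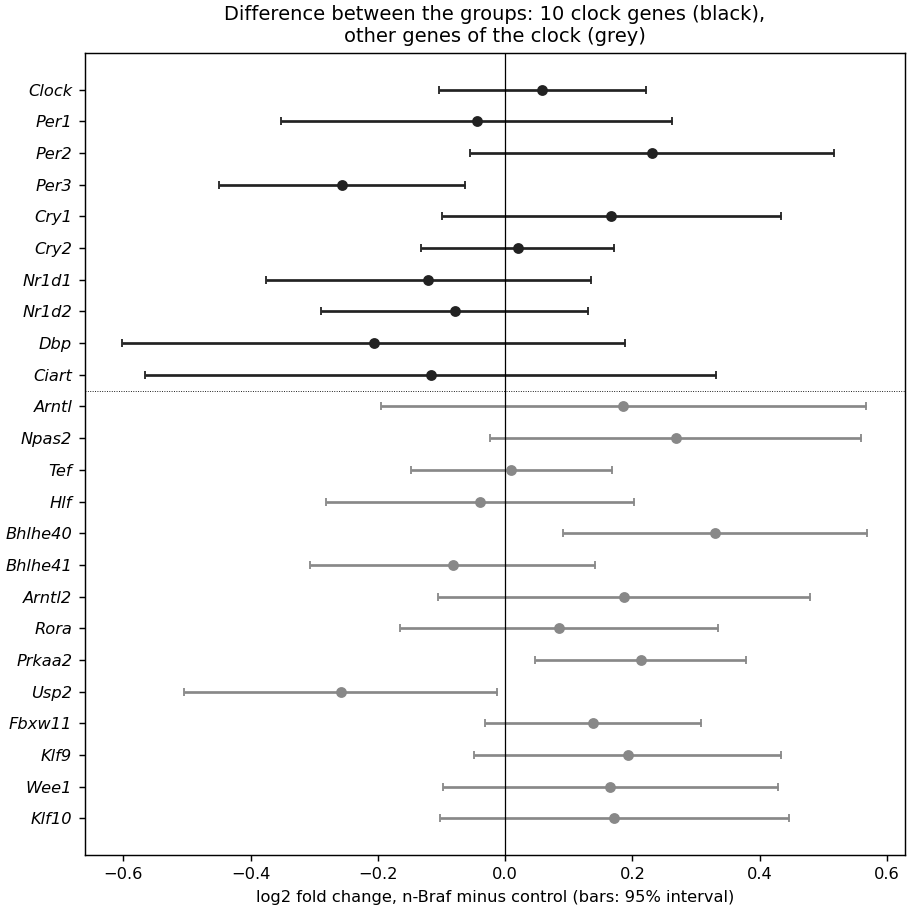
Log2 fold change of n-Braf against control (horizontal axis, bars are 95% intervals of the quasi-likelihood fit, unadjusted) for the 10 clock genes in black and for other genes of the clock in grey. Among the black points the interval of Per3, -0.45 to -0.06, is the one that does not reach 0.

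Per kilobase of merged exon, Cry2 was the most abundant member, at 16.8 ± 0.773 CPM per kb (SD, n = 6 libraries). Nr1d1 followed at 16.6 ± 1.99 and Dbp at 15.2 ± 3.19 CPM per kb. Nr1d2 was at 13.6 ± 1.22, Per1 at 11.8 ± 1.69 and Clock at 9.05 ± 0.529 CPM per kb. The lowest were Per2 at 6.22 ± 0.972, Per3 at 4.74 ± 0.584, Ciart at 3.78 ± 0.755 and Cry1 at 3.20 ± 0.333 CPM per kb. In 7 of the 9 neighbouring pairs of this order the ranges over the 6 libraries overlapped. The exceptions were Per1 above Clock, which missed overlap narrowly (lowest 9.61 against highest 9.60 CPM per kb), and Clock above Per2. The exon lengths are those of GENCODE M21 with all isoforms merged, so the order depends on which isoforms the hippocampus uses.

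Libraries of one group differed most in Ciart and Dbp among the 10 members and least in Cry2 and Clock. The SD of log2 CPM within groups was 0.31 for Dbp, 0.31 for Ciart, 0.23 for Per1 and 0.20 for Per2. For Cry2 it was 0.07 and for Clock 0.09, beside a median of 0.12 over the 11748 genes with a mean CPM of at least 5. Among those genes the SD of Dbp stood at percentile 94.5, that of Ciart at 94.8, that of Per1 at 87.2 and that of Per2 at 82.8. Nr1d1, with an SD of 0.18, stood at percentile 77.6, Nr1d2, with 0.14, at 62.2, Cry1, with 0.12, at 53.4, and Per3, with 0.11, at 48.0. Clock and Cry2 stood at percentiles 30.9 and 21.1. For Dbp the highest library had 1.73 times the level of the lowest and for Ciart 1.78 times, beside a median of 1.25 over the same 11748 genes. Counting error was small against this spread for Dbp (SD 3.24% at its lowest count of 953) and larger for Ciart (7.65% at 171 counts).

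**Figure D3:**
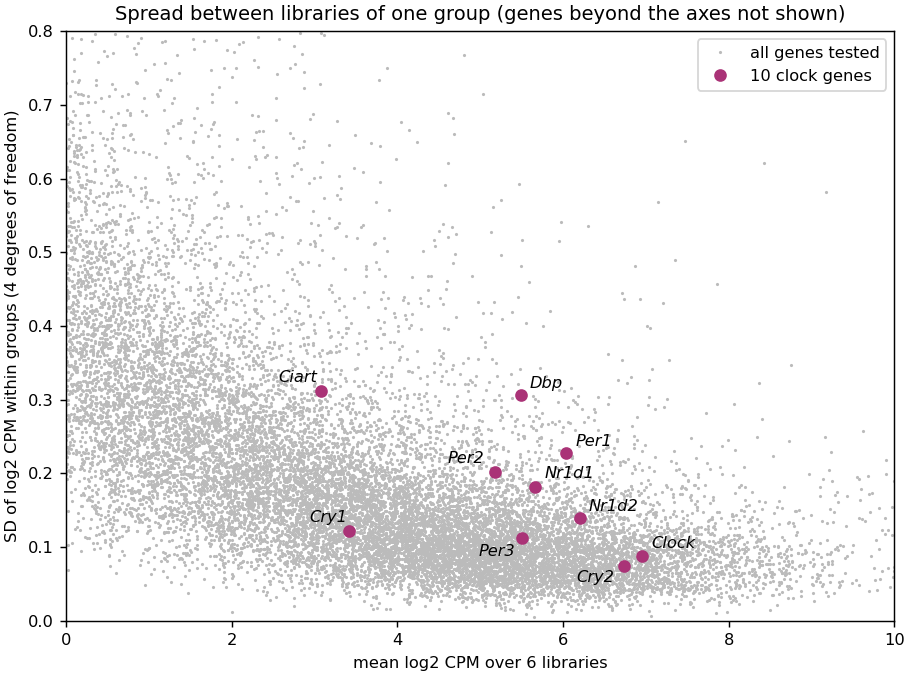
SD of log2 CPM within groups (vertical axis) against mean log2 CPM over the 6 libraries (horizontal axis) for all genes tested (grey) and the 10 clock genes (purple, named). Dbp, with an SD of 0.31, lies above most genes of its level, and Clock and Cry2 lie among the bulk.

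The pattern over libraries had opposite ends in 2 controls. Control 1 was the highest library in 4 members, Per3, Nr1d1, Dbp and Ciart, and the lowest in 3, Clock, Per2 and Cry1. Control 2 was the highest in Clock and the lowest in 4, Cry2, Nr1d1, Dbp and Ciart. n-Braf 1 was the lowest in Per1, Per3 and Nr1d2, and n-Braf 2 the highest in Per1, Per2 and Cry1. Of all genes tested 21% were lowest in control 1, 15.3% in control 2 and 16.6% in n-Braf 1. Among genes with a mean CPM of at least 5, as all members have, these shares were 26.4%, 13.8% and 17.6%. The share of all genes highest in each library was not counted. Cry1 was close to a tie between controls 1 and 3 (10.03 and 10.04 CPM). Controls 1 and 2 both had high choroid plexus markers, and stood at opposite ends of Dbp and Ciart. Summed over 10 genes, endothelial and blood markers were at 255, 145 and 159 CPM in the controls and at 155, 216 and 182 CPM in n-Braf. Like Dbp they were highest in control 1 and lowest in control 2, and their part in the clock gene pattern was not tested. Arntl, which the members' loop drives in the opposite phase, was at 18.8, 29.1 and 26.0 CPM in the controls and at 29.2, 23.0 and 31.8 CPM in n-Braf. It was lowest in control 1, where Dbp was highest. The ratio of Dbp to Arntl within a library was 3.27, 1.22 and 1.90 in the controls and 1.301, 2.09 and 1.29 in n-Braf. Over the 6 libraries it thus ranged over 1.42 log2 units, and the groups overlapped.

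**Figure D4:**
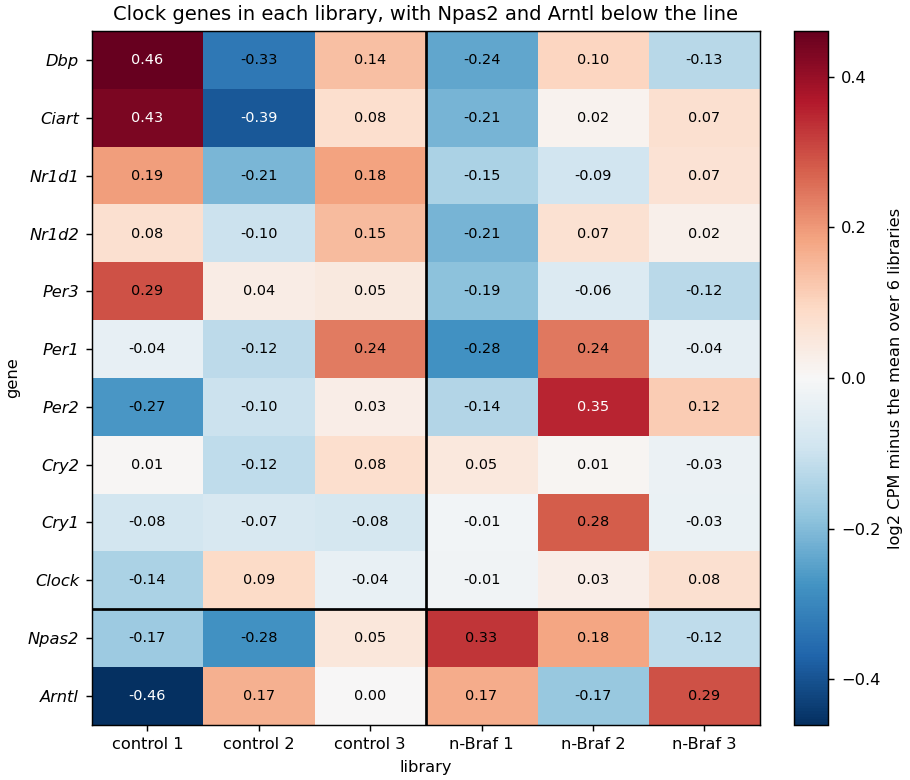
Log2 CPM of each gene (rows) in each library (columns) minus the mean of that gene over the 6 libraries, printed in each cell; red is higher and blue lower, and the lines separate the groups and set Npas2 and Arntl apart. Control 1 combines the highest Dbp (0.46) with the lowest Arntl (-0.46), and control 2 has Dbp at -0.33 and Arntl at 0.17.

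As a gauge of phase, the mean log2 CPM of Per1, Per2, Per3, Nr1d1, Nr1d2, Dbp and Ciart was set against that of Arntl and Npas2. The difference between these means was 1.05, 0.45 and 0.67 in the controls and 0.12, 0.65 and 0.48 in n-Braf, on the log2 scale. Its mean was 0.72 ± 0.30 for controls and 0.42 ± 0.27 for n-Braf mice (SD, n = 3 per group). The groups overlapped, and their difference of -0.30 was about as large as the pooled SD of 0.29. It was -0.14 without control 1, -0.16 without n-Braf 1 and -0.44 without control 2. The 6 libraries spread over 0.93 log2 units. Per2 did not follow all the genes it was pooled with. Over the 6 libraries its Pearson r was -0.50 with Per3, -0.15 with Nr1d1, -0.11 with Dbp and -0.10 with Ciart. It was 0.66 with Per1 and 0.35 with Nr1d2. Differences in the hour of collection, within or between the groups, were not tested, because no hour is given.

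Over the 6 libraries, 30 of the 45 pairs of members were positively correlated and 15 negatively. By Pearson r the relation of Dbp and Ciart was the strongest, with r = 0.93 (exact permutation p = 0.00417, two-sided) and Spearman rho = 0.94 (exact permutation p = 0.0167). Adjusted over the 45 pairs these were 0.156 and 0.250, so the pair did not pass. Without the 2 libraries farthest from the median of Dbp r was 0.70, and for deviations from the group means it was 0.94. Nr1d1 and Ciart had r = 0.88 (exact permutation p = 0.00694, adjusted 0.156) and rho = 1 (exact permutation p = 0.00278, adjusted 0.125), with r = 0.79 without the 2 farthest libraries and 0.89 within groups. In the 10 pairs of Arntl with a member, 8 were negative, and Arntl with Dbp had r = -0.90 (exact permutation p = 0.0194, adjusted over 10 pairs 0.185). Its rho was -0.71 (exact permutation p = 0.136, adjusted 0.438), and r was -0.61 without the 2 libraries farthest from the median of Arntl and -0.88 within groups. Npas2, pooled with Arntl in the gauge of phase, had 6 negative and 4 positive pairs, with r = -0.07 for Dbp. Over its 10 pairs the smallest adjusted exact permutation p was 0.875. Npas2 was lowest in control 2, where Dbp was also lowest. No pair passed after adjustment, and the smallest p that 720 orders of the libraries allow is 0.00139 for r. For rho even a perfect rank order, as in Nr1d1 and Ciart, gave an exact permutation p of 0.00278, adjusted 0.125. A lone pair among the 45 could therefore not pass by rho, and the lack of a passing pair says little. The libraries share depth and composition, which also enter these values.

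The gene whose pattern was most like that of the 7 outputs was itself a clock gene. Among 11696 other genes with a symbol and a mean CPM of at least 5, Bhlhe41, which encodes the E-box repressor DEC2, had the largest Pearson r with their mean profile, 0.99 over 6 libraries. Bhlhe41 was at 43.7, 35.1 and 42.1 CPM in the controls and at 34.7, 40.5 and 38.9 CPM in n-Braf, low in control 2 and n-Braf 1 like the profile. The next 4 were Rps19, a ribosomal protein gene (0.99), Arap3 (0.98), Aven (0.98) and Dennd4c (0.98). With 6 libraries and this many genes such values are descriptions of likeness and carry no test.

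Of 37 other genes of the clock 0 were past an adjusted p of 0.05 in edgeR's quasi-likelihood test. Under an unadjusted p of 0.05 lay 2 higher genes, Bhlhe40 and Prkaa2, and 1 lower, Usp2, beside 3.09% and 3.73% of all genes. Bhlhe40, the DEC1 repressor, was at 80.7, 83.5 and 88.7 CPM in the controls and at 88.3, 109 and 120 CPM in n-Braf. Its log2 fold change was 0.33 (SE 0.11, adjusted p = 0.612 in the quasi-likelihood test), and n-Braf 1 fell within the controls. Prkaa2, a catalytic subunit of the AMP-activated kinase that targets CRY proteins, was at 36.7 ± 1.05 CPM in the controls and 42.5 ± 2.87 CPM in n-Braf. Usp2, a rhythmic ubiquitin protease, was at 35.8 ± 4.08 and 29.9 ± 3.26 CPM, with overlapping groups. The log2 fold change of Fbxw11, a ubiquitin ligase subunit for PER, was 0.14 (SE 0.08).

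Of the 6 activators tested, 5 were higher and 1 lower, and 0 passed an unadjusted p of 0.05. Npas2, the relative of CLOCK, was at 24.4, 22.5 and 28.3 CPM in the controls and at 34.3, 31.1 and 25.2 CPM in n-Braf. Its log2 fold change was 0.27 (SE 0.13, unadjusted p = 0.0672), with n-Braf 3 inside the range of the controls. The value of Npas2 was 0.16 without n-Braf 1, 0.38 without n-Braf 3 (unadjusted p = 0.0109 in the quasi-likelihood test), 0.37 without control 3 (unadjusted p = 0.0278) and 0.51 with age as a covariate (unadjusted p = 0.0107). It was 0.09 without controls 1 and 2 together, 0.10 with the choroid plexus covariate and 0.14 with the neocortical one, and DESeq2 gave an unadjusted p of 0.0479. Arntl had a log2 fold change of 0.19 (SE 0.17), Arntl2 of 0.19 (SE 0.13) and the receptor gene Rora, an activator of Arntl, of 0.08 (SE 0.11).

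Among 14 further outputs 9 were higher and 5 lower, and 0 passed an unadjusted p of 0.05. Tef and Hlf, which encode the other D-box binding factors of the Dbp family, differed by 0.01 (SE 0.07) and -0.04 (SE 0.11) on the log2 scale. The Krüppel-like factor genes Klf9 and Klf10 were at 0.19 (SE 0.11) and 0.17 (SE 0.12), the cell cycle kinase gene Wee1 at 0.17 (SE 0.12), and Bmp4, a growth factor gene with few counts, at -0.84 (SE 0.40). Cirbp and Rbm3, cold-inducible RNA-binding genes, differed by -0.10 (SE 0.16) and -0.0050 (SE 0.10).

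Per1 and Per2 share regulation with genes induced by neuronal activity, so these were set beside them. Of 12 early genes 3 passed an unadjusted p of 0.05, all higher, beside 3.09% of all genes, and 0 an adjusted p of 0.05. Egr1, a transcription factor gene, was at 79.3 ± 18.6 CPM in the controls and 110 ± 6.00 CPM in n-Braf, and its groups did not overlap. Its log2 fold change was 0.47 (SE 0.14, adjusted p = 0.562 in the quasi-likelihood test), and without control 3 it was 0.67 with an adjusted p of 0.0222. Without controls 1 and 2 together Egr1 was at 0.14 (SE 0.11). Fosb was at 7.76 ± 1.36 and 11.1 ± 1.69 CPM, Arc at 99.5 ± 24.2 and 134 ± 15.2 CPM, and Egr2 had a log2 fold change of 0.56 (SE 0.30). The count of 3 was 0 with the choroid plexus covariate and 5 with age as a covariate. It was 2 to 5 with single libraries left out, with 5 without control 3 and 2 without control 2, n-Braf 2 or n-Braf 3. Of all genes, 2.64% were under an unadjusted p of 0.05 with the choroid plexus covariate and 6.79% with age. With single libraries left out that share was 4.59% to 7.57%. Per1, Per2, Egr1 and Arc were all lower in controls 1 and 2 than in control 3. The early genes Npas4 (19.8, 13.65 and 13.63 CPM in the controls) and Nr4a3 (88.4, 126 and 121 CPM) did not have this order. In n-Braf 1 Per1 was at its lowest, 54.1 CPM, whereas Egr1 was at 112 CPM there, above every control. The relation of Per1 and Per2 to these genes was not tested.

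Glucocorticoid-responsive genes had 1 of 12 past an unadjusted p of 0.05, Mt2, a metallothionein gene with a close relative in Mt1, at 11.7 ± 1.06 CPM in the controls and 16.3 ± 3.80 CPM in n-Braf. The log2 fold change of Mt1 was 0.22 (SE 0.11), that of Fkbp5, a cochaperone of the glucocorticoid receptor, 0.23 (SE 0.12), and that of the kinase gene Pdk4 -0.29 (SE 0.13). None of the 12 passed an adjusted p of 0.05 in edgeR's quasi-likelihood test, and 6.82% of all genes were under an unadjusted p of 0.05. The count of 1 was 0 without control 2, without n-Braf 2, and with age or the choroid plexus mean in the fit. It was 4 without n-Braf 1, and 2 without control 1 or control 3. Of all genes, 7.11% were under that p without control 2, 5.07% without n-Braf 2, 6.79% with age and 2.64% with the choroid plexus mean. The share was 5.19% without n-Braf 1, 4.59% without control 1 and 7.14% without control 3. Mt2 had an unadjusted p of 0.208 without controls 1 and 2 together and 0.185 with the choroid plexus covariate.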

How the data were processed

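Expected counts per gene were deposited by the authors. Per the submitters' processing notes, bcl2fastq 2.20, fastp 0.20.1, STAR, RSEM and edgeR 3.36.0 were used with mm10. Versions of STAR and RSEM, the annotation release and the strand setting are not given in the sources used here. Per the labels' protocols, each library was made from 10.0 ng of RNA with a stranded SMART-Seq kit. The deposited table also gives the authors' log2 fold changes and p-values. Counts of Cry2, Nr1d1 and Dbp are partly not whole; these members and Ciart overlap a gene on the opposite strand in GENCODE M21 (D930015M05Rik, Thra, Sphk2 and C920021L13Rik).

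Counts were rounded, filtered with filterByExpr (minimum count 10), TMM-scaled and tested with the quasi-likelihood test of edgeR 4.0.16 in R 4.3.3, with group as the only term, all 6 libraries and Benjamini-Hochberg adjustment across all 20604 genes. The threshold was an adjusted p of 0.05. The log2 CPM values use a prior count of 2. SE and 95% intervals come from the same fit. The fit was tested on simulated data. Alternatives were other scalings, DESeq2 1.42.0, limma-voom (limma 3.58.1), other filters, a replicate block, age or marker covariates, and leaving out libraries or abundant RNA genes. No library was a copy of another (chi-square over its degrees of freedom at least 8.99 for every pair).

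The members and lists were chosen with earlier results of these data known. The text names all 10 members, up to 4 genes per pathway list by smallest unadjusted p, Arntl, Npas2, Tef, Hlf, Cirbp, Rbm3, Bhlhe40 and Bhlhe41 always, the 5 genes most like the output profile, and Braf. The alternatives for genes and lists other than the members were added after seeing the data. The labels give each mouse its own number, so replicates are separate animals.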

Additional observations from a re-analysis of the deposited data

How the results depend on the processing

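Over 19 alternatives 0 of 190 member values passed an adjusted p of 0.05, and the sign of 6 of the 10 members never changed (Clock, Per2, Per3, Cry1, Nr1d1 and Dbp). Same-numbered libraries showed little shared deviation (r = 0.103, -0.046 and -0.014 over genes). With 3 libraries a group this cannot exclude that the numbers pair the mice. With a replicate block 2 members, Per2 and Per3, passed an unadjusted p of 0.05, beside 6.26% of all genes. That count was 0 without controls 1 and 2 together, 0 with the choroid plexus mean as a covariate, and 0 to 3 when single libraries were left out, with 0 without control 1 and 3 without control 2; over all genes the share was 3.15% without controls 1 and 2, 2.64% with that covariate, 4.59% without control 1 and 7.11% without control 2. Members with non-overlapping groups numbered 1 with library size alone, 8 without controls 1 and 2 together (1 library against 3) and 2 to 7 when single libraries were left out, with 7 without control 2. Over all genes the share that did not overlap was 10.3% with library size alone, 47.6% without controls 1 and 2, 22.9% without control 2 and 19.6% to 23.7% over the single libraries left out. The other clock genes past an unadjusted p of 0.05 numbered 7 with the neocortical mean as a covariate, where 6.67% of all genes were under that p. They numbered 2 to 4 with single libraries left out, beside 4.59% to 7.57% of all genes. Over all genes, DESeq2 called 78, the fit without controls 1 and 2 together 3, the neocortical covariate 2, and the fit without mitochondrial, ribosomal and 7S RNA genes 1; single libraries left out gave 0 to 82, with 82 without control 3. The cause was not tested. Other tools, the block and covariates leave levels as they are, so the count of non-overlapping members has no value of its own there.

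Signs changed with age as a covariate in Per1 (0.20), Arntl (-0.020), Hlf (0.18), Rbm3 (0.19), Klf10 (-0.076), Camk2a (-0.098) and Aven (0.025). Cry2 changed sign without controls 1 and 2 together (-0.066) and with the choroid plexus (-0.058) or neocortical (-0.016) covariate. Rora did so without controls 1 and 2 together (-0.010) and with the neocortical covariate (-0.022), Tef with library size alone (-0.0088) and without controls 1 and 2 together (-0.0058), and Rbm3 in limma-voom (0.0013). When single libraries were left out, log2 fold changes ran from -0.19 to 0.071 in Per1, -0.031 to 0.065 in Cry2, -0.15 to 2.0e-05 in Nr1d2, -0.31 to 0.10 in Ciart, -0.055 to 0.057 in Tef, -0.18 to 0.027 in Hlf, -0.24 to 0.042 in Cirbp, -0.090 to 0.10 in Rbm3, -0.013 to 0.18 in Rora and -0.24 to 0.0016 in Aven. With 3 mice a group the 95% intervals leave folds up to 1.43 for Per2 and down to 0.659 for Dbp. The counting SD at the lowest count was 3.53% for Per2, 3.24% for Dbp, 6.23% for Cry1 and 7.65% for Ciart. In the same order, the SD between controls was 10.3%, 26.6%, 0.337% and 28.0% of the mean. Between n-Braf libraries it was 16.8%, 12.1%, 12.4% and 10.4%. The part of depth in the intervals was not tested.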

Other observations

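Within n-Braf, the library lowest in Per1, n-Braf 1, was also the lowest of the 6 libraries in 6 of 12 glucocorticoid-responsive genes, a pattern picked out after the values were seen; 16.6% of all tested genes were lowest in that library. The 6 were Sgk1, Tsc22d3, Fkbp5, Pdk4, Ddit4 and Nfkbia. Of the others, Zbtb16, Sult1a1, Errfi1 and Cdkn1a were lowest in control 1, and Mt1 and Mt2 in control 2. Sgk1, a kinase gene, was at 25.4 CPM there, against 52.6 and 61.5 CPM in n-Braf 2 and 3 and 38.7 to 55.3 CPM in the controls. Tsc22d3, which encodes the leucine zipper protein GILZ, was at 17.6 CPM there, against 36.7 and 29.0 CPM in n-Braf 2 and 3 and 23.4 to 30.7 CPM in the controls. Fkbp5 was at 36.0 CPM there, against 48.4 and 49.8 CPM in n-Braf 2 and 3 and 37.8 to 38.5 CPM in the controls. Per1 itself, a gene that glucocorticoids induce, was at 54.1 CPM in n-Braf 1 and between 60.4 and 77.7 CPM in the other libraries. Per2, which responds to them too, was not lowest there. It was at 32.9 CPM in n-Braf 1, between control 1 (30.0 CPM) and control 2 (33.7 CPM). No difference between single libraries was tested.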
